A study of Danio rerio with 3 samples.

Results

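The high mobility group (HMG) proteins are small, abundant, nonhistone components of chromatin. Of the 29077 genes listed in the LY dataset, 7 HMG genes were taken by their symbols: *hmgb2a*, *hmgb2b*, *hmgn2*, *hmga1a*, *hmgb1a*, *hmgb1b*, and *hmgb3a*. Each symbol belongs to 1 Ensembl identifier, namely ENSDARG00000029722, ENSDARG00000053990, ENSDARG00000099572, ENSDARG00000028335, ENSDARG00000099175, ENSDARG00000030479, and ENSDARG00000056725 in that order.

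HMG proteins fall into families by the way they bind chromatin. HMGB proteins bend DNA through paired HMG boxes, HMGN proteins sit on the nucleosome core and compete with linker histone H1, and HMGA proteins bind the minor groove of AT-rich DNA through short AT-hooks. In mammals most of them are high in dividing and embryonic cells and decline as cells differentiate, and in mice HMGB2 has been tied to the exit of adult neural stem cells from quiescence. In the adult zebrafish telencephalon the neural stem cells (NSCs) are radial glia, most of which are quiescent, and Notch signaling holds them in that state.

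The data are droplet single-cell RNA sequencing libraries of telencephalic cells from *Tg(Sox2:gfp)* fish aged 12 weeks, a line in which GFP marks NSCs and intermediate progenitors. All fish had received LY-411575 (LY), a gamma-secretase inhibitor that blocks Notch receptor cleavage. The study's methods give 24 hours of treatment and the deposited description 48 hours. Untreated fish were not analysed here, so no statement on the effect of LY is made and every class described below comes from treated fish. The 3 replicates are libraries of different sorting days, each pooled from 20 fish with GFP-positive cells enriched. The p-values therefore measure only how far differences between classes vary among these pools. They held 5349 to 8143 barcodes, 12104324 to 15050320 unique molecular identifiers (UMIs, a count of captured RNA molecules), and medians of 1541 to 1676 UMIs per barcode. After filtering, 17838 of 19697 barcodes were used. Pairs of libraries shared 53 to 71 barcode sequences.

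Cells were placed in 9 classes by the number of listed marker genes with a UMI, and no HMG gene was used for this. The classes were 304 radial glia without *ascl1a* UMIs, 621 radial glia with *ascl1a* UMIs, 1004 cells with G1/S genes and no G2/M program, 281 G2/M cells, 249 neuroblasts, 2779 neurons, 111 oligodendrocyte precursor (OPC)-gated cells, 219 oligodendrocytes, and 207 macrophages, together 32.4% of the cells used. *ascl1a* encodes a proneural transcription factor that Notch signaling represses. Of 32 markers kept apart to check the classes, 23 were highest in their own class. All 4 checks of the S-phase gate (*slbp*, *esco2*, *ccne2*, and *chaf1b*) were higher in the G2/M cells. The 16 G1/S markers summed to 52.6 UMIs per 10000 in the S-phase gate and to 69.6 in the G2/M cells. Cells of the S-phase gate are therefore called G1/S cells. The G2/M gate set no limit on G1/S markers, so the G2/M cells may include cells in S phase. Comparing these gates therefore need not separate S phase from G2/M cleanly. Among the OPC checks only *sox8b* was highest in that gate, *olig4* had no UMI there, and replicates held as few as 16 of its cells, so these are called OPC-gated cells. A wider rule, which places 72.8% of the cells, was added after the class sizes had been seen.

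A level is the number of UMIs of a gene per 10000 UMIs, summed over the cells of a class in 1 replicate. Levels come from 3′ tags and are compared between classes, not between genes, and fewer expressing cells and less RNA per cell cannot be told apart in such sums. The 7 genes together reached 336 ± 23.7 UMIs per 10000 (SD, n = 3) in G2/M cells, against 143 ± 16.7 in neuroblasts and 112 ± 12.4 in G1/S cells. Radial glia with *ascl1a* held 61.7 ± 6.99, neurons 59.0 ± 6.998, and radial glia without *ascl1a* 47.9 ± 8.43. Oligodendrocytes (44.0 ± 5.09), macrophages (43.8 ± 5.80), and OPC-gated cells (40.7 ± 15.0) were at the low end. In every replicate the G2/M cells, with 321, 324, and 363, stood above all other classes. The members did not share 1 profile: 6 were highest in G2/M cells and *hmgb3a* was highest in neuroblasts. How many of all genes were highest in G2/M cells was not counted.

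**Figure D1:**
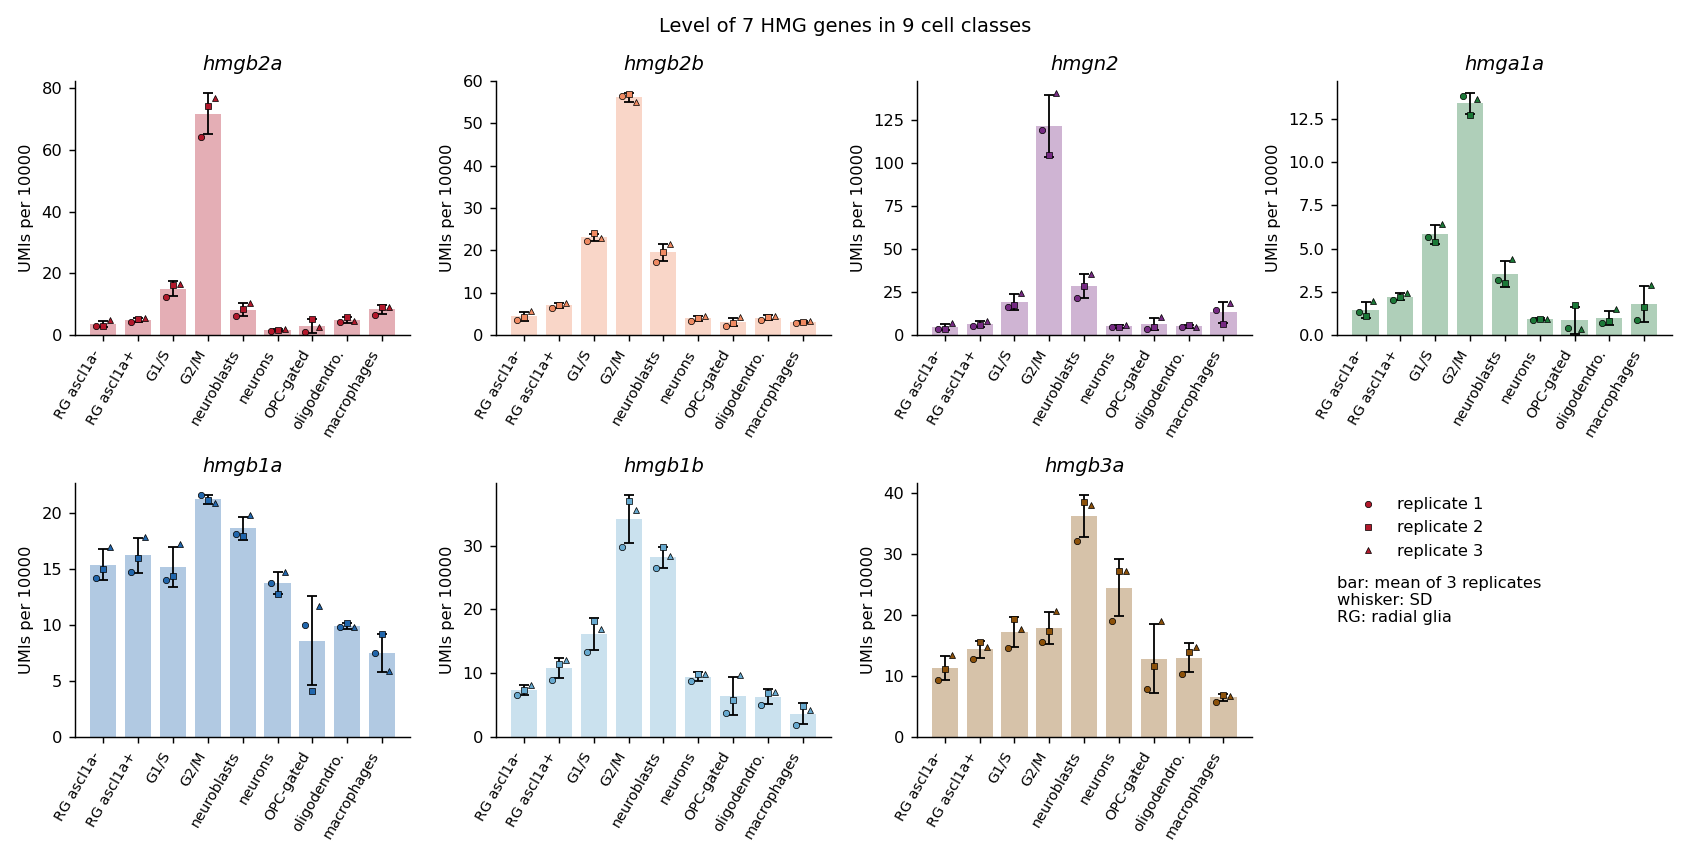
Level of each of the 7 HMG genes in UMIs per 10000 (vertical axis, starting at 0) in 9 classes, with 1 symbol per replicate, the mean of 3 replicates as a bar, and the SD as a whisker. The G2/M bar is the tallest for 6 genes, as for *hmgn2* at 122 against 28.3 in neuroblasts, while *hmgb3a* peaks at 36.2 in neuroblasts and *hmgb1a* varies little among radial glia, G1/S cells, and neurons.

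Most HMG genes were higher in G1/S cells than in radial glia and higher again in G2/M cells, and most were lower in neurons than in neuroblasts. Between the radial glia with and without *ascl1a* only *hmgb2b* and *hmgb1b* passed the test. Classes were compared by edgeR's quasi-likelihood test (2-sided) with Benjamini-Hochberg adjustment over the 5226 genes tested with the replicate as a block, and calls were made at an adjusted p under 0.05. All 7 members passed the filter on low counts. Between *ascl1a*-positive and *ascl1a*-negative radial glia 2 members were higher and none lower, against 4.46% of all genes tested that were called higher and 3.52% called lower. The members' median log2 fold change was 0.56 and that of all genes 0.03. In G1/S cells against *ascl1a*-positive radial glia 5 members were higher (17.3% of all genes), with a median of 1.41 against 0.00101 over all genes. In G2/M against G1/S cells 6 were higher (10.4% of all genes), with a median of 1.28 against -0.05. No member was lower in G1/S cells or in G2/M cells, against 13.2% and 10.3% of all genes.

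On the neuronal side, 6 members were higher in neuroblasts than in *ascl1a*-positive radial glia and none lower (19.6% and 20% of all genes), with a median of 1.23 against 0.02. In neurons against neuroblasts 5 were lower (19.2% of all genes were lower, 27.6% higher), with a median of -1.70 against 0.23. The other lineages, each set against *ascl1a*-negative radial glia, showed no shared direction. In macrophages 3 members were higher and 1 lower (18.7% and 17.1% of all genes). In oligodendrocytes 1 was higher and 1 lower (13.5% and 14.2% of all genes), and in OPC-gated cells 2 were lower and none higher (16.5% and 8.76% of all genes). These comparisons share classes with one another. Scaling by total UMIs in place of TMM (edgeR's default) shifted the median log2 fold change of all genes by -0.22 in neurons against neuroblasts, by 0.13 in OPC-gated cells, and by -0.43 in macrophages. Scaling by size factors of DESeq2's kind shifted it by -0.15 in the radial glia, 0.20 in OPC-gated cells, and -0.19 in macrophages.

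**Figure D2:**
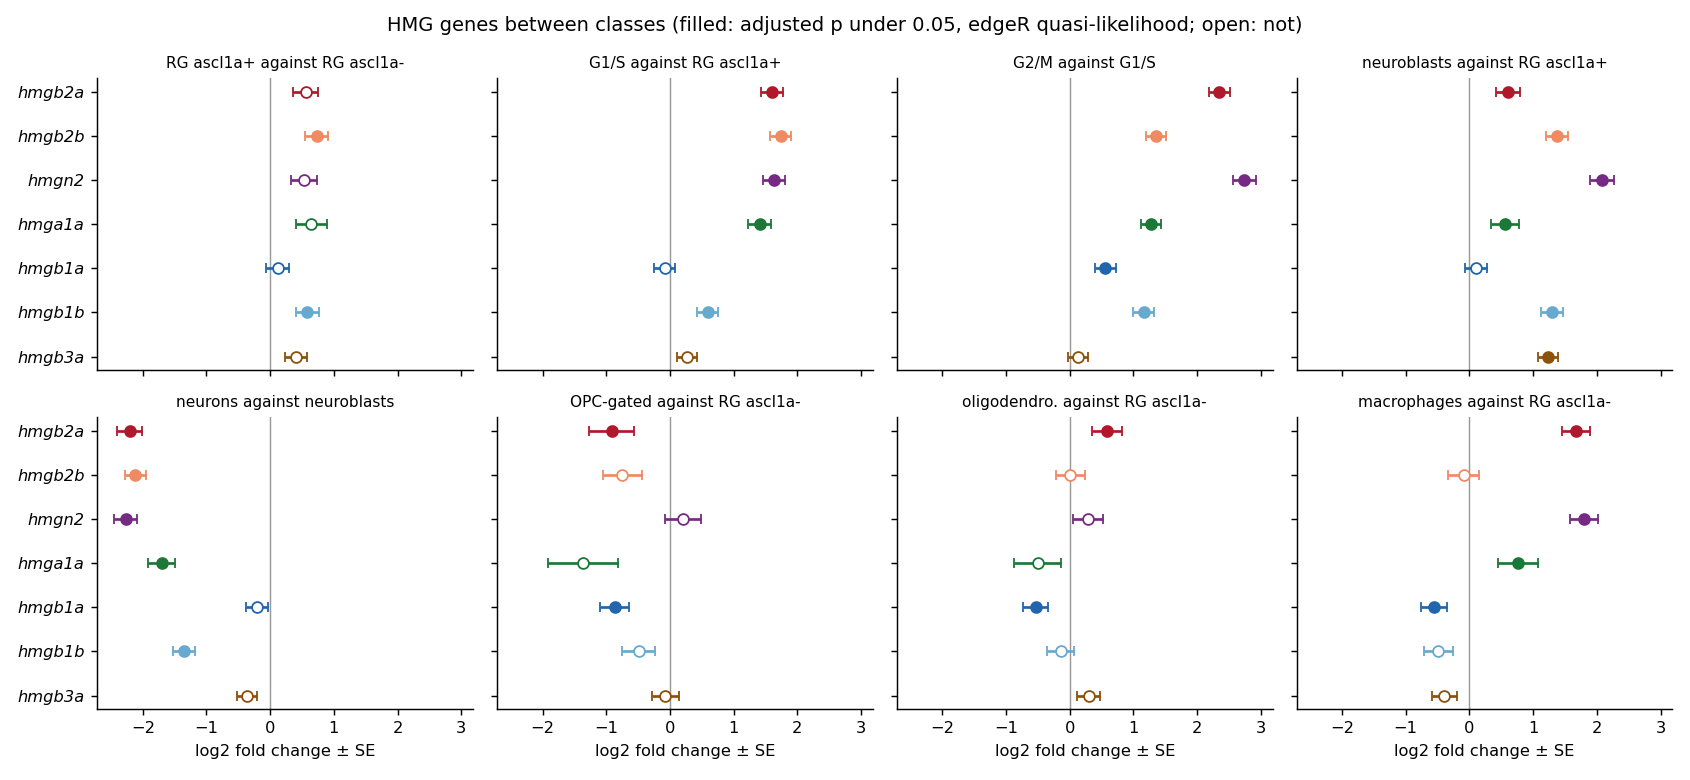
Log2 fold change ± SE (horizontal axis, edgeR, 3 replicates) of the 7 HMG genes in 8 comparisons of classes, with a filled symbol where the adjusted p was under 0.05. In G2/M against G1/S cells 6 of 7 symbols are filled, from 0.56 for *hmgb1a* to 2.74 for *hmgn2*, and in neurons against neuroblasts 5 are filled on the negative side.

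The HMGB2 pair comprises *hmgb2a* and *hmgb2b*, paralogs of mammalian HMGB2, a DNA-bending protein of dividing cells. Both were low in radial glia, higher in G1/S cells, and highest in G2/M cells. In *ascl1a*-negative radial glia *hmgb2b* had levels of 3.41, 4.22, and 5.55 UMIs per 10000 in replicates 1, 2, and 3. In *ascl1a*-positive radial glia it had 6.41, 7.004, and 7.55. The *ascl1a*-positive values were the higher ones in 3 of 3 replicates and the groups did not overlap. The log2 fold change was 0.73 ± 0.19 (SE) with an adjusted p of 0.0040 (edgeR). The call was lost without the replicate block (adjusted p = 0.0812), with cells thinned to 1000 UMIs (0.0537), and without replicate 2 (0.67, adjusted p = 0.0668) or replicate 3 (0.83, adjusted p = 0.0726) in edgeR's test. Median depths were 1469 UMIs in *ascl1a*-negative and 1652 UMIs in *ascl1a*-positive radial glia, and a cell of low depth can lack *ascl1a* UMIs for that reason alone. Thinned cells were classed anew from their thinned counts, so the thinned fits compare other sets of cells. The replicates then held 257, 168, and 149 *ascl1a*-negative radial glia, against 136, 82, and 86 before thinning.

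*hmgb2a* differed less clearly between the radial glia. Its levels were 2.89, 2.88, and 4.72 without *ascl1a* and 4.31, 5.01, and 5.56 with it. The groups overlapped, although 3 of 3 replicates were higher with *ascl1a*. The log2 fold change of 0.56 ± 0.20 did not pass edgeR's threshold (adjusted p = 0.0686). It passed in 3 of the alternatives, among them *ascl1a*-positive cells defined from 2 UMIs (0.61, adjusted p = 0.0356).

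In G1/S cells both paralogs exceeded all radial glia. *hmgb2b* had 22.3, 24.03, and 23.0 UMIs per 10000 there and *hmgb2a* 12.2, 16.1, and 16.6. The lowest G1/S replicate of either gene lay above the highest radial glia replicate. Against *ascl1a*-positive radial glia the log2 fold changes were 1.74 ± 0.16 for *hmgb2b* (adjusted p = 7.8e-17) and 1.60 ± 0.17 for *hmgb2a* (adjusted p = 5.8e-14) by edgeR. In G2/M cells *hmgb2a* reached 64.3, 74.1, and 76.9 and *hmgb2b* 56.4, 57.1, and 55.1. The further difference from G1/S cells was 2.34 ± 0.17 on the log2 scale for *hmgb2a* and 1.36 ± 0.16 for *hmgb2b* (edgeR adjusted p = 2.0e-25 and 8.2e-13). All 4 calls held under every alternative tried. The G2/M cells were also deeper, with a median of 3019 UMIs against 2172.5 in G1/S cells. With cells thinned to 1000 UMIs and classed anew the log2 fold changes were 2.15 and 1.22.

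The balance of the paralogs differed by class in the same libraries. For each UMI of *hmgb2a* there were 1.39 to 1.83 UMIs of *hmgb2b* in G1/S cells and 0.716 to 0.877 in G2/M cells. Neuroblasts held 2.09 to 2.89 and neurons 2.39 to 2.79. In macrophages the ratio was 0.339 to 0.433 and in oligodendrocytes 0.742 to 1. In macrophages of replicates 1 and 3, 2 cells carried 53.85% and 47.6% of the *hmgb2b* UMIs. The ranges over replicates of G1/S cells, G2/M cells, neuroblasts, and macrophages did not overlap. No test of the ratio was run. Reads that match both paralogs equally could not be told apart, so the split between them is uncertain.

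Neuroblasts are the young precursors of neurons, and both paralogs were called higher in them than in *ascl1a*-positive radial glia. *hmgb2b* had 17.3, 19.7, and 21.5 UMIs per 10000, all above *ascl1a*-positive radial glia, a log2 fold change of 1.38 ± 0.17 (edgeR adjusted p = 8.4e-12). *hmgb2a* had 6.003, 8.36, and 10.3, a log2 fold change of 0.61 ± 0.19 (edgeR adjusted p = 0.0056). That call was lost without replicate 2 (0.54, adjusted p = 0.0567) and without replicate 3 (0.36, adjusted p = 0.357), as well as under 4 further alternatives of edgeR's test. In neurons the levels were 3.20, 4.02, and 4.41 for *hmgb2b* and 1.15, 1.58, and 1.85 for *hmgb2a*. Neurons were lower than neuroblasts in 3 of 3 replicates without overlap, by log2 fold changes of -2.12 ± 0.17 and -2.21 ± 0.19 (edgeR adjusted p = 7.0e-22 and 1.1e-19).

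Among the other lineages the paralogs parted in macrophages, while in OPC-gated cells both had negative log2 fold changes. Macrophages, the resident immune cells, had *hmgb2a* at 6.56, 9.11, and 9.19 UMIs per 10000, above the 2.88 to 4.72 of *ascl1a*-negative radial glia in every replicate. The log2 fold change was 1.67 ± 0.22 (edgeR adjusted p = 5.7e-11) and held under every alternative tried. *hmgb2b* in the same macrophages was at 2.84, 3.09, and 3.22, below the radial glia. Of its UMIs 2 cells per replicate carried 53.85%, 8.77%, and 47.6%, and without them the levels were 1.41, 2.88, and 1.80. The fitted log2 fold change with all cells was -0.09 ± 0.24 (edgeR adjusted p = 0.833). With cells thinned to 1000 UMIs and classed anew it was -1.05 (edgeR adjusted p = 8.3e-04). In that setting *hmgb2b* had 6.16 UMIs per 10000 in *ascl1a*-negative radial glia and 2.205 in macrophages, against 4.39 and 3.05 before. Scaling by total UMIs moved the median of all genes in this comparison by -0.43. In oligodendrocytes, the myelinating glia, *hmgb2a* had 4.28, 5.85, and 4.41, overlapping the radial glia. Its call as higher (0.59 ± 0.23, edgeR adjusted p = 0.0473) was lost under 8 of 14 alternatives. These included the removal of any 1 replicate (0.21 to 0.77). *hmgb2b* in oligodendrocytes had a log2 fold change of 0.0095 ± 0.23 without a call (edgeR adjusted p = 0.967). In OPC-gated cells *hmgb2a* rested on 6, 9, and 7 UMIs and was called lower (-0.91 ± 0.36, edgeR adjusted p = 0.0474). That call was lost under 8 of 14 alternatives. Among them were edgeR without replicate 1 (-0.54, adjusted p = 0.505), without replicate 3 (-0.84, adjusted p = 0.241), and under the wider class rule (-0.34, adjusted p = 0.0773). *hmgb2b* in these cells had a log2 fold change of -0.75 ± 0.31 without a call (edgeR adjusted p = 0.0631).

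*hmgn2* encodes a nucleosome-binding protein that keeps chromatin open. Its level was 122 ± 18.1 UMIs per 10000 in G2/M cells against 4.57 ± 1.90 in *ascl1a*-negative radial glia. The G2/M replicates had 119, 105, and 141 and the G1/S replicates 16.2, 17.2, and 24.6. No G1/S replicate approached the lowest G2/M replicate. The log2 fold change was 2.74 ± 0.18 (edgeR adjusted p = 1.3e-28). G1/S cells in turn exceeded *ascl1a*-positive radial glia, which had 5.14, 5.51, and 8.21, by 1.64 ± 0.18 (edgeR adjusted p = 1.0e-13). Both calls held under every alternative tried. *ascl1a*-negative radial glia (3.45, 3.49, and 6.76) were below *ascl1a*-positive ones in every replicate, although the groups overlapped. The log2 fold change of 0.53 ± 0.20 between them did not pass (edgeR adjusted p = 0.0945).

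Neuroblasts had 21.3, 28.3, and 35.2 UMIs per 10000 of *hmgn2*. They stood above *ascl1a*-positive radial glia in every replicate, by 2.08 ± 0.18 on the log2 scale (edgeR adjusted p = 4.9e-19). Their range overlapped that of the G1/S cells. Within each replicate neuroblasts were above G1/S cells, by 8.95 ± 3.28 UMIs per 10000 (SD), a difference that was not tested. Neurons, with 4.52, 4.58, and 5.84, were below neuroblasts by a log2 fold change of -2.27 ± 0.18 (edgeR adjusted p = 4.5e-22), and within the range of *ascl1a*-negative radial glia. These calls too held under every alternative tried. The order of neighbours from *ascl1a*-negative radial glia through oligodendrocytes, neurons, and OPC-gated cells to *ascl1a*-positive radial glia did not exceed the spread between replicates.

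Part of the *hmgn2* sum rested on few cells. Of the 281 G2/M cells 65.1% held at least 20 UMIs of *hmgn2*, against 6.43% of neuroblasts, 3.78% of G1/S cells, and 1.45% of macrophages. In macrophages 2 cells per replicate carried 74.6%, 10.3%, and 70.8% of the class's *hmgn2* UMIs. The macrophage levels were 14.7, 6.29, and 18.4 with these cells and 4.19, 5.77, and 5.83 without them. *ascl1a*-negative radial glia treated alike had 3.23, 3.14, and 5.86. The call of *hmgn2* as higher in macrophages (1.80 ± 0.22, edgeR adjusted p = 2.2e-12) came with sums of which 2 cells held most in 2 of 3 replicates. In *ascl1a*-positive radial glia of replicate 3, 2 cells carried 97 of 276 UMIs, and the level without them was 5.38. In neuroblasts the 2 highest cells carried 24.8% to 25.3% in each replicate, and the level without them was 21.9 ± 5.66 against 28.3 ± 6.94 with them. In OPC-gated cells they carried 15.4%, 50%, and 50%. In G2/M cells the 2 highest cells carried 5.60% to 8.18%.

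**Figure D3:**
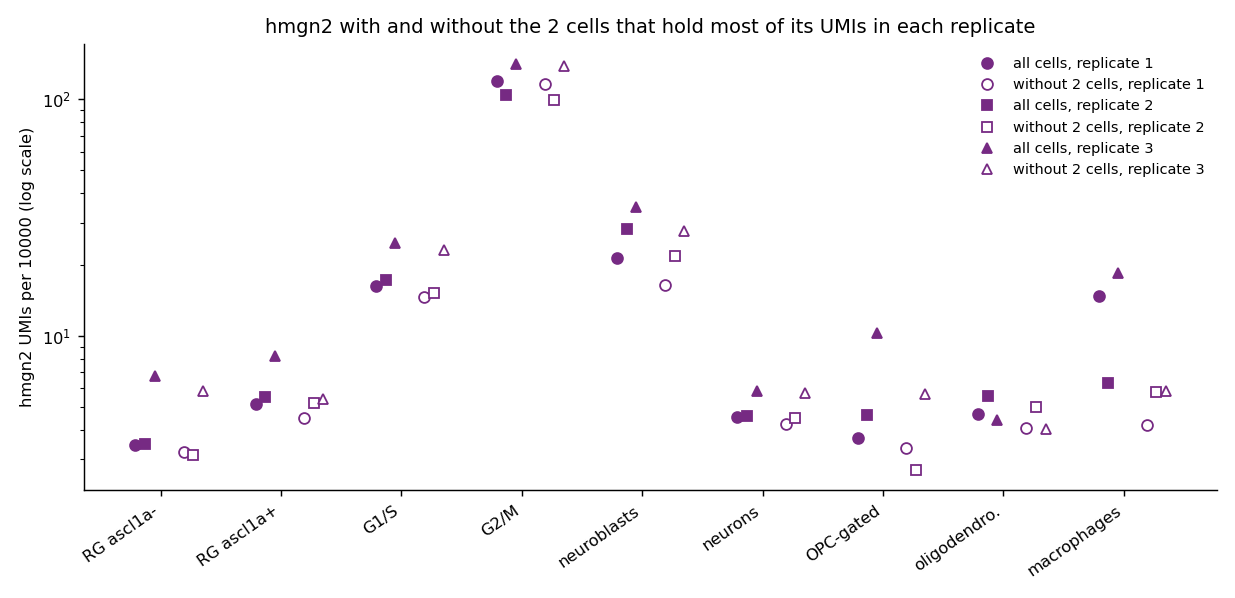
*hmgn2* level in UMIs per 10000 (vertical log axis) in 9 classes, with 1 symbol shape per replicate, filled for all cells and open after leaving out the 2 cells with most *hmgn2* UMIs in each class and replicate. G2/M cells stay at 99.6 to 138, while macrophages go from 6.29 to 18.4 down to 4.19 to 5.83.

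*hmga1a* encodes an AT-hook protein of the HMGA1 type and was the least abundant member by total UMIs, with 11890 of them over the 3 libraries. It was higher in G1/S cells than in radial glia and higher again in G2/M cells. Its levels were 1.31, 1.101, and 1.98 UMIs per 10000 in *ascl1a*-negative and 2.003, 2.20, and 2.41 in *ascl1a*-positive radial glia. All *ascl1a*-positive values were higher without overlap, but the log2 fold change of 0.65 ± 0.24 did not pass (edgeR adjusted p = 0.0816). G1/S cells had 5.67, 5.38, and 6.41 and G2/M cells 13.8, 12.7, and 13.7. Neither step overlapped. The log2 fold changes were 1.41 ± 0.18 and 1.28 ± 0.16 (edgeR adjusted p = 5.1e-11 and 2.0e-11), and both held under every alternative tried.

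Neuroblasts had 3.17, 3.03, and 4.37 UMIs per 10000 of *hmga1a* and neurons 0.859, 0.928, and 0.936. The lowest neuroblast replicate lay above the highest neuron replicate. Neurons were lower by a log2 fold change of -1.70 ± 0.21 (edgeR adjusted p = 1.1e-11), which held under every alternative tried. The call against *ascl1a*-positive radial glia (0.56 ± 0.21, edgeR adjusted p = 0.0285) did not hold under 10 of 14 alternatives, including the removal of replicate 2 (0.61, adjusted p = 0.0574) and of replicate 3 (0.31, adjusted p = 0.439). Macrophages had 0.875, 1.63, and 2.91, overlapping the radial glia, and their call as higher (0.77 ± 0.31, edgeR adjusted p = 0.0448) was lost under 13 of 14 alternatives, including removal of replicate 2 (0.47, adjusted p = 0.449) and replicate 3 (0.45, adjusted p = 0.456). In those sums *hmga1a* had 4, 30, and 19 UMIs.

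HMGB1, the most abundant HMGB protein of mammals, acts as a DNA chaperone in the nucleus and as a danger signal outside the cell. Its zebrafish paralogs *hmgb1a* and *hmgb1b* gave different calls, although the difference between them was not tested. *hmgb1a* had 14.2, 15.0, and 16.9 UMIs per 10000 in *ascl1a*-negative radial glia, 14.7, 16, and 17.8 in *ascl1a*-positive radial glia, and 14.0, 14.3, and 17.2 in G1/S cells. The 3 classes overlapped throughout, although *ascl1a*-positive radial glia were the highest of them in every replicate. The log2 fold changes of 0.12 ± 0.17 and -0.08 ± 0.17 did not pass (edgeR adjusted p = 0.791 and 0.764), and the first changed sign under size factors computed by DESeq2's method. G2/M cells had 21.6, 21.2, and 20.9, above all G1/S replicates, a log2 fold change of 0.56 ± 0.17 (edgeR adjusted p = 0.0086). That call was lost under 5 of 14 alternatives, among them edgeR without replicate 2 (0.51, adjusted p = 0.0613) and without replicate 3 (0.61, adjusted p = 0.0856). Over all alternatives, fitted by edgeR or DESeq2, its adjusted p reached 0.219.

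*hmgb1b* was higher at each of these steps. In *ascl1a*-negative radial glia it had 6.6, 7.40, and 8.10 UMIs per 10000 and in *ascl1a*-positive radial glia 8.93, 11.4, and 12.0. The groups did not overlap, and the log2 fold change was 0.58 ± 0.18 (edgeR adjusted p = 0.0261). It did not pass without replicate 2 (0.50, adjusted p = 0.203), without replicate 3 (0.54, adjusted p = 0.328), or under 4 further alternatives. G1/S cells had 13.3, 18.1, and 17.0, higher by 0.59 ± 0.16 (edgeR adjusted p = 0.0027). That call was lost under 2 of 14 alternatives, among them edgeR without replicate 3 (0.61, adjusted p = 0.0637). G2/M cells had 29.9, 37.1, and 35.6, far from the G1/S range. This last log2 fold change of 1.16 ± 0.16 (edgeR adjusted p = 2.3e-09) held under every alternative tried. For each UMI of *hmgb1a* there were 0.465 to 0.494 UMIs of *hmgb1b* in *ascl1a*-negative radial glia, 0.606 to 0.712 in *ascl1a*-positive radial glia, 0.954 to 1.27 in G1/S cells, and 1.38 to 1.76 in G2/M cells, ranges that did not overlap.

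On the neuronal side only *hmgb1b* passed the test. Neuroblasts had 26.4, 29.8, and 28.4 UMIs per 10000 of *hmgb1b*, and neurons 8.69, 9.83, and 9.83. Both differences were larger than the spread between replicates, 1.30 ± 0.17 against *ascl1a*-positive radial glia and -1.35 ± 0.17 in neurons against neuroblasts on the log2 scale (edgeR adjusted p = 1.1e-10 and 6.1e-12). For *hmgb1a* neuroblasts had 18.1, 17.9, and 19.8 and neurons 13.7, 12.7, and 14.7, with log2 fold changes of 0.10 ± 0.17 and -0.21 ± 0.17 that did not pass (edgeR adjusted p = 0.696 and 0.323). *hmgb1a* was called lower in neurons under 5 of 14 alternatives, among them the fit on these 2 classes alone (-0.39, edgeR adjusted p = 0.0115), and the fit without a filter on low counts changed its sign.

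*hmgb1a* was lower in each of the other lineages. Oligodendrocytes had 9.77, 10.2, and 9.76 UMIs per 10000, macrophages 7.44, 9.17, and 5.82, and OPC-gated cells 9.97, 4.06, and 11.7. All of these values lay below the lowest replicate of *ascl1a*-negative radial glia. The log2 fold changes were -0.53 ± 0.20, -0.56 ± 0.20, and -0.86 ± 0.23 (edgeR adjusted p = 0.0306, 0.0204, and 0.0017). Without replicate 3 the first and second were lost (-0.56, adjusted p = 0.139, and -0.59, adjusted p = 0.095), and under the wider class rule the oligodendrocyte and OPC-gated differences were -0.11 and -0.20 and did not pass (adjusted p = 0.577 and 0.248). *hmgb1b* had 4.95 to 7.09 in oligodendrocytes, 1.75 to 4.88 in macrophages, and 3.70 to 9.63 in OPC-gated cells, with no call. In macrophages the fitted -0.49 ± 0.23 (edgeR adjusted p = 0.0823) passed under 11 of 14 alternatives.

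*hmgb3a* encodes a relative of mammalian HMGB3, which is known from embryonic and blood progenitors. It was higher in neuroblasts, and neither step of the cell cycle passed the test. Neuroblasts had 32.2, 38.5, and 38.0 UMIs per 10000 and neurons 19.0, 27.2, and 27.3. *ascl1a*-positive radial glia had 12.8, 15.6, and 14.7, G1/S cells 14.5, 19.4, and 17.7, and G2/M cells 15.5, 17.3, and 20.7. The lowest neuroblast replicate exceeded every replicate of the other classes. Against *ascl1a*-positive radial glia the log2 fold change was 1.23 ± 0.16 (edgeR adjusted p = 1.9e-10) and held under every alternative tried. G1/S cells (0.26 ± 0.16, edgeR adjusted p = 0.224) and G2/M cells (0.13 ± 0.16, edgeR adjusted p = 0.652) gave no call.

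Neurons were below neuroblasts in 3 of 3 replicates, yet the fitted log2 fold change of -0.36 ± 0.16 missed the threshold (edgeR adjusted p = 0.0545). It passed in 8 of 14 alternatives, among them the 2-class fit (-0.53, adjusted p = 0.0012) and without replicate 2 (-0.47, adjusted p = 0.0414). The neurons held 27.1 UMIs per 10000 of the 9 neuroblast markers, against 64.3 in neuroblasts, though each neuron could hold at most 1 of these markers. Oligodendrocytes held 22.0 with 7 of the 9 markers at 0, so such a sum can rest on few markers. In *ascl1a*-negative radial glia *hmgb3a* had 9.31, 11.1, and 13.3. In every replicate these were below the *ascl1a*-positive cells, but the ranges overlapped and the difference did not pass (0.40 ± 0.17, edgeR adjusted p = 0.148). Macrophages had 5.69, 6.84, and 6.74, the lowest of all classes in each replicate. Their fitted difference of -0.39 ± 0.20 from *ascl1a*-negative radial glia did not pass (edgeR adjusted p = 0.128), and it passed in 11 of 14 alternatives.

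Cells were then divided more finely, by the number of UMIs or markers used to set the classes. These bins are descriptions without a test. Radial glia were binned by *ascl1a* UMIs, and *hmgb2b* had 4.39 ± 1.08, 5.86 ± 0.208, 5.98 ± 1.07, 7.11 ± 0.979, and 8.47 ± 1.36 UMIs per 10000 (SD, n = 3) at 0, 1, 2, 3 or 4, and 5 or more *ascl1a* UMIs. *hmgb1b* went from 7.37 ± 0.752 to 12.3 ± 2.43 over the same bins and *hmgb2a* from 3.49 ± 1.06 to 5.37 ± 0.434. *hmgb1a* stayed between 14.9 and 16.6. Median depth went from 1469 to 1813 UMIs. *hmgb3a* went from 11.3 ± 2.0 to 15.4 ± 1.8, *hmga1a* from 1.46 ± 0.458 to 2.22 ± 0.353, and *hmgn2* from 4.57 ± 1.90 to 6.93 ± 1.39. Between the first and last bins *hmgb1a* was nearly level. How many of all genes had a higher mean in the last bin was not counted. The rises of the members are therefore not shown to be particular to them. The replicates of those bins overlapped for *hmga1a*, *hmgn2*, and *hmgb1a*. The bin of 0 is the *ascl1a*-negative class and the later bins make up the *ascl1a*-positive class. The trend therefore restates in part the comparison of these classes.

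Among cells with at least 3 radial glia markers, the number of G1/S markers separated the members further. These bins cross classes. Bins of 0 and 1 G1/S markers are the radial glia classes, the bin of 2 (163 cells) belongs to no class, and later bins are G1/S cells. The trend over them therefore restates in part the comparison of G1/S cells with radial glia. From 0 to 8 or more G1/S markers *hmgb2b* went from 5.82 ± 1.06 to 23.2 ± 1.01, *hmgb2a* from 4.18 ± 0.464 to 16.3 ± 1.79, and *hmga1a* from 1.92 ± 0.503 to 6.11 ± 0.454, with every bin above the one before. *hmgb1a* (16.3 ± 1.75 to 14.5 ± 1.86) and *hmgb3a* (13.1 ± 1.499 to 13.2 ± 2.88) ended where they began. *hmgn2* had 5.41 ± 1.74 at the start and 7.70 ± 0.938 at 5 to 7 markers, and reached 14.9 ± 3.72 only at 8 or more. Its bin of 2 markers stood out through replicate 3, with 23.8 against 9.40 and 7.01. Median depth went from 1544.5 to 2659 UMIs, and its part in the trend was not tested.

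G2/M cells were divided likewise by the number of G2/M markers. With 3 or 4, 5 to 8, and 9 or more markers *hmgn2* had 57.5 ± 12.8, 94.6 ± 21.6, and 174 ± 9.90 UMIs per 10000. *hmgb2a* had 41.0 ± 5.59, 57.6 ± 2.34, and 98.7 ± 16.1, and *hmgb2b* 39.0 ± 4.40, 49.98 ± 2.79, and 69.8 ± 4.94. *hmgb1a* had 19.6 ± 1.33, 17.8 ± 1.05, and 24.4 ± 1.52, and *hmgb3a* stayed between 15.0 and 20.6. Median depth went from 2647 to 3471 UMIs over these bins. G2/M cells with at most 1 radial glia marker (61 cells) had more *hmgb2a* than those with at least 3 (143 cells), 103 ± 8.72 against 58.4 ± 6.30, and more *hmgn2*, 170 ± 27.8 against 99.4 ± 17.9. Neither gene overlapped between these subsets. Nor did *hmgb2b* (65.95 ± 3.98 and 51.5 ± 2.78), *hmgb1b* (42.1 ± 6.37 and 30.6 ± 3.23), or *hmga1a* (18.1 ± 1.98 and 11.6 ± 1.16). *hmgb1a* overlapped, at 19.9 ± 3.08 and 21.9 ± 3.28, as did *hmgb3a*, at 20.2 ± 5.57 and 16.2 ± 1.94. The share of all genes without overlap was not counted. In G1/S cells the same split (165 and 640 cells) gave 20.2 ± 4.79 and 13.3 ± 2.52 for *hmgb2a*, which overlapped. For *hmgn2* it gave 28.4 ± 5.11 and 15.9 ± 6.48, where the lowest replicate of the first (23.6) barely exceeded the highest of the second (23.3). For *hmgb2b* it gave 29.3 ± 1.69 and 20.2 ± 1.18, without overlap (27.7 against 21.0).

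**Figure D4:**
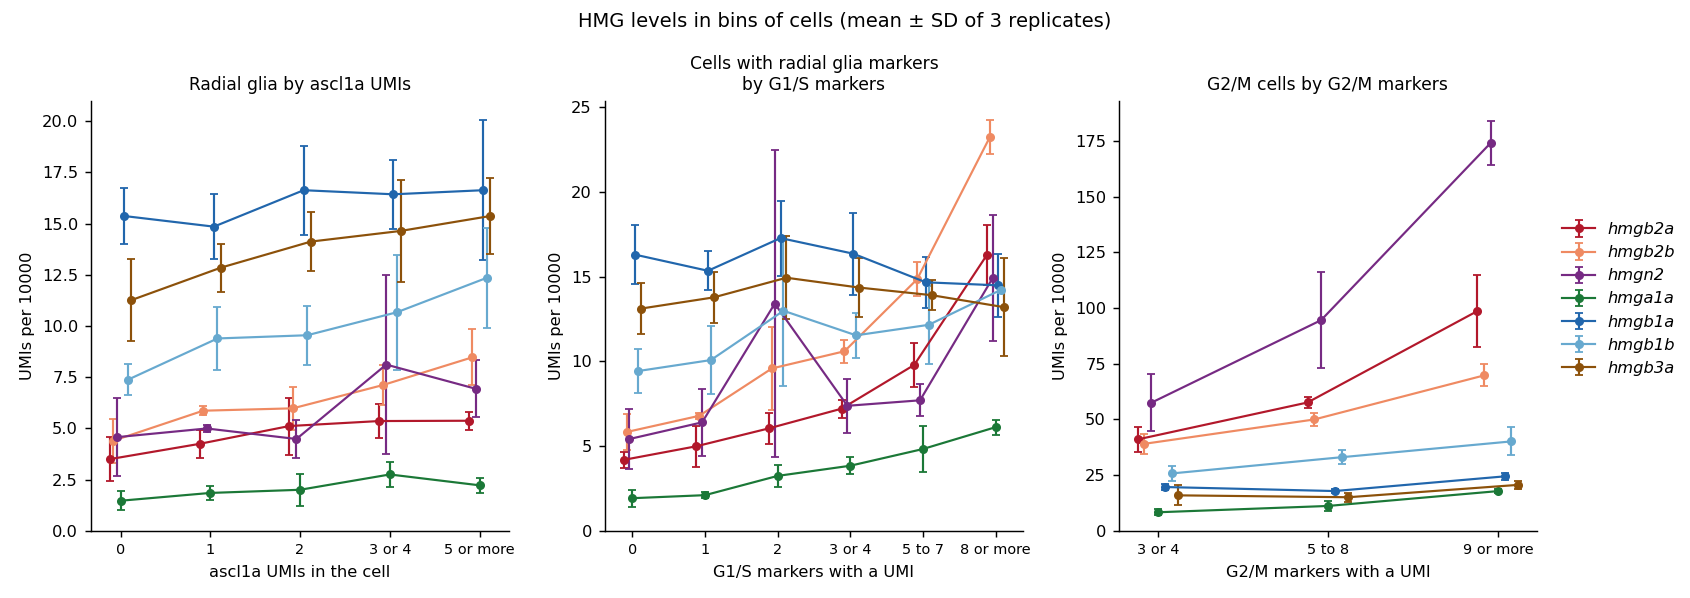
Level of the 7 HMG genes in UMIs per 10000 (mean ± SD of 3 replicates, vertical axes starting at 0) in radial glia binned by *ascl1a* UMIs (left), in cells with radial glia markers binned by G1/S markers (middle), and in G2/M cells binned by G2/M markers (right). *hmgb2b* goes from 5.82 to 23.2 in the middle panel and *hmgn2* from 57.5 to 174 in the right panel, and *hmgb1a* and *hmgb3a* stay nearly level in the middle panel.

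Shares of cells with a UMI were taken in the classes set with all UMIs kept. After each cell was thinned to 1000 UMIs and shallower cells were left out, they gave a like order for *hmgb2b*. This gene was detected in 37.2% ± 6.18 of *ascl1a*-negative radial glia (SD, n = 3), 49.2% ± 6.16 of *ascl1a*-positive radial glia, 81.4% ± 0.912 of G1/S cells, and 100% of G2/M cells. In neuroblasts it was 77.6% ± 1.83 and in neurons 30.0% ± 5.71. With all UMIs kept, the same 6 shares were 48.8%, 68.2%, 93.0%, 98.9%, 84.3%, and 39.3%. Thinning left out 67 of 304 *ascl1a*-negative and 40 of 621 *ascl1a*-positive radial glia, 42 of 1004 G1/S cells, 9 of 281 G2/M cells, 42 of 249 neuroblasts, 780 of 2779 neurons, and 58 of 207 macrophages. *hmgb3a* was detected in 96.6% ± 0.828 of neuroblasts, 85.0% ± 6.71 of neurons, and 38.1% ± 2.96 of macrophages, or in 96.2%, 88.1%, and 57.5% with all UMIs kept. All 7 genes are broadly expressed, so no class could serve as their background of free RNA. Of *ascl1a*, a neural gene, 3.59% ± 0.832 of the macrophages had a UMI after thinning and 5.20% ± 3.75 with all UMIs kept.

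The genes whose levels over the 27 class sums were most like those of a member were ranked by Pearson's r of log2 CPM, as a description, since sums of a class share its cells and those of a replicate share a library. *cbx3a*, a heterochromatin protein 1 gene, came first for *hmgb2b* (r = 0.967), the replacement histone H3.3 gene *h3f3b.1* for *hmgn2* (0.945), *rbm8a* of the exon junction complex for *hmgb1b* (0.946), and *hp1bp3*, a relative of linker histone, for *hmgb3a* (0.937). *setb*, a histone chaperone gene, came first for *hmga1a* (0.913), *hmga1a* itself for *hmgb2a* (0.907), and *si:ch211-284b7.3* for *hmgb1a* (0.911). Within the 7 genes, *hmga1a* and *hmgb2b* were the most alike (0.908) and *hmgb2a* and *hmgb3a* the least (0.145).

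Other genes of HMG type were counted in the same fits, which share the background given above. Of 16 listed, 14 were in the files and 9 could be tested. Their median was 0.50 in G1/S cells against *ascl1a*-positive radial glia, with 5 higher (17.3% of all genes). In G2/M against G1/S cells it was 0.10, with 2 higher (10.4% of all genes) and 1 lower (10.3%). *hmgn6*, a further nucleosome-binding HMGN gene, peaked outside the cell cycle, with 46.0, 42.8, and 45.1 UMIs per 10000 in neuroblasts. It had 13.2, 14.6, and 15.4 in *ascl1a*-positive radial glia and 7.18, 7.22, and 8.499 in neurons, with no overlap. The log2 fold changes were 1.54 ± 0.16 and -2.33 ± 0.17 (edgeR adjusted p = 1.1e-14 and 2.8e-25). *ssrp1a*, a subunit of the histone chaperone FACT, was higher in G1/S cells (2.31 ± 0.31, edgeR adjusted p = 5.5e-10), and *hmgb3b* was lower in G2/M than in G1/S cells (-0.65 ± 0.18, edgeR adjusted p = 0.0048). *tox3* had no UMI in the macrophages.

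Linker histones and histone variants were counted likewise. Of 9 tested, 6 were higher in G1/S cells (17.3% of all genes tested), 6 in G2/M cells (10.4%), and 5 in neuroblasts (19.6%). In neuroblasts 1 was lower (20% of all genes), and 5 were lower in neurons (19.2%). *h3f3b.1* had 19.7 to 21.7 UMIs per 10000 in G2/M and 4.39 to 5.18 in G1/S cells (2.20 ± 0.16, edgeR adjusted p = 3.7e-24). The histone H2A.Z gene *h2afvb* followed with 1.69 ± 0.17 (edgeR adjusted p = 3.5e-16). Of 21 histone chaperone and heterochromatin genes, 17 were higher in G1/S cells and none lower, led by *uhrf1*, *asf1ba*, *hells*, and *chaf1a*, which are known for their work at or after the replication fork. In G2/M against G1/S cells 8 were higher and 1 was lower, with a median log2 fold change of 0.28. In neuroblasts 10 were higher and 1 was lower. In neurons against neuroblasts 9 were lower, with a median of -0.07. The shares over all genes are those given for the histone genes, with 10.3% lower in G2/M cells. *ptmab*, a prothymosin alpha gene whose product binds histone H1, had 66.7, 67.6, and 63.7 in neuroblasts against 18.1 to 19.2 in *ascl1a*-positive radial glia (1.73 ± 0.17, edgeR adjusted p = 2.5e-16).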

How the data were processed

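The authors mapped droplet 3′ reads to GRCz11 with the Ensembl annotation in Cell Ranger (3.0.1 per the file headers) and deposited whole UMI counts per gene and barcode, 1 matrix per replicate. Barcodes were dropped where fewer than 200 genes had a UMI, where mitochondrial genes took over 10% of UMIs, or where the number of genes lay more than 3 SD from its loess curve (span 0.5) on depth. Scrublet (scanpy 1.11.5) marked under 0.5% of cells by its automatic threshold, and instead 974 cells were removed by rank of their score, at a rate of 0.8% per 1000 cells.

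A class needed at least 3 of its own markers (2 for OPC-gated cells, oligodendrocytes, and macrophages). It could hold at most 1 marker from each list of the other lineages. Classes outside the cell cycle were also limited to 1 G1/S and 1 G2/M marker, and G1/S cells to 1 G2/M marker. G1/S and G2/M cells could hold any number of radial glia and neuroblast markers. The wider rule took cells with more markers of 1 list than of any other. Counts were summed per class and replicate, since cells are not replicates, and all 9 classes were fitted together in edgeR 4.0.16 (R 4.3.3) with TMM scaling, its filter on low counts, and the replicate as a block, because classes of 1 replicate come from the same fish and library. Deviations of same-replicate sums correlated at 0.0405 to 0.516. SEs are the log2 fold change divided by the root of F. With 3 pairs an exact sign-flip test cannot go below 0.25.

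On simulated counts for the comparison of the radial glia (3926 genes), 48 of 50 genes raised 2-fold, 34 of 50 lowered 2-fold, and all 100 changed 4-fold were recovered, with 9 false calls. The simulated replicates differed only in depth and random spread, and the classes only in the changed genes. These figures therefore need not hold for the real data. Alternatives were DESeq2 1.42.0, its size factors, no filter, no block, 2-class fits, other marker minimums, and *ascl1a*-positive cells from 2 UMIs. Further ones were cells thinned and then classed anew, doublets kept, 5% mitochondrial UMIs, the wider rule, and each replicate left out. The 7 members and all gene lists were chosen with earlier results of these data known. Other genes are named from lists of HMG genes, histone variants, and histone chaperones (given as counts with examples by size of fold change) and as the nearest by correlation. Intervals between replicates do not cover biases of capture, and no sequences are shown.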

Additional observations from a re-analysis of the deposited data

How the results depend on the processing

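Of 32 member calls, 20 held under every alternative tried. Among the 20 is *hmgn2* in macrophages, where 2 cells held 74.6% and 70.8% of its UMIs in replicates 1 and 3. No alternative was made to leave such cells out. Over all alternatives the called members kept their call 379 times and lost it 71 times, with no change of sign. Members without a call stayed so with the same sign 243 times, passed 65 times, and changed sign 33 times. The cause of each change was not tested, beyond the fewer samples left when a replicate is removed.

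Counts of genes called differed by more than 1.5 times as follows. Without the replicate block, 69 genes were called between the radial glia (417 with it), 895 in G1/S cells (1592), and 542 in G2/M cells (1081). Without the block the calls lost were *hmgb2b* (adjusted p = 0.0812) and *hmgb1b* (0.293) between the radial glia, *hmgb1b* in G1/S cells (0.102), *hmgb1a* in G2/M cells (0.16), *hmga1a* (0.101) and *hmgb2a* (0.071) in neuroblasts, *hmgb2a* in OPC-gated cells (0.0827), *hmgb1a* (0.129) and *hmgb2a* (0.159) in oligodendrocytes, and *hmga1a* (0.0862) and *hmgb1a* (0.0608) in macrophages, all by edgeR. Fits on 2 classes called 1625 genes in G2/M cells, 632 in OPC-gated cells (1318 in the joint fit), and 856 in oligodendrocytes (1447). Thinned cells gave 549 in G2/M cells. The wider class rule, chosen after the class sizes were seen, tested 9839 genes and called 1091 between the radial glia, 3069 in G1/S cells, 4126 in neuroblasts (2071), 5134 in neurons (2447), 3339 in OPC-gated cells, 3144 in oligodendrocytes, and 3101 in macrophages (1868). Leaving out a replicate gave 196 to 318 genes between the radial glia, 633 to 968 in G2/M cells, and 758 to 1178 in OPC-gated cells.

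Changes of sign, as log2 fold changes, were as follows. For *hmgb1a* they were -0.039 (DESeq2) and -0.038 (its size factors) between the radial glia, 0.0076 (no filter) in neurons, and in neuroblasts -0.15 (no filter), -0.028 (2 classes), -0.14 (1 marker fewer), -0.010 (5% mitochondrial UMIs), and -0.020 to 0.070 with a replicate left out. For *hmgb3a* they were -0.046 (no filter) and -0.018 to 0.23 (a replicate left out) in G2/M cells, 0.14 (DESeq2), 0.15 (its size factors), 0.35 (2 classes), and 0.38 (wider rule, adjusted p = 0.0097 by edgeR) in OPC-gated cells, and -0.20 (1 marker more), -0.061 (thinned), and -0.19 (wider rule) in oligodendrocytes. For *hmgn2* they were -0.16 (no filter), -0.25 (1 marker more), -0.38 (thinned), and -0.039 to 0.24 (a replicate left out) in OPC-gated cells and -0.13 to 0.56 (a replicate left out) in oligodendrocytes. For *hmgb2b* in oligodendrocytes they were -0.23 (no filter), -0.026 (DESeq2), -0.030 (its size factors), -0.0052 (no replicate block), -0.14 (1 marker fewer), -0.49 (1 marker more), -0.68 (thinned, adjusted p = 0.0114 by edgeR), -0.12 (doublets kept), -0.043 (5% mitochondrial UMIs), and -0.17 to 0.032 (a replicate left out). Depth was lowest in oligodendrocytes and OPC-gated cells, with medians of 942 and 1001 UMIs per cell, and OPC-gated cells numbered 16 to 63 per replicate.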
